A study of Mus musculus with 4 samples.

Results

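The genes described here encode the high mobility group (HMG) architectural proteins of chromatin and Dek, in B16F10 mouse melanoma cells with reduced lamin A/C. They were chosen by symbol from the gene count matrix, and 10 rows of 24421 were taken, namely Hmga1, Hmga2, Hmgb1, Hmgb2, Hmgb3, Hmgn1, Hmgn2, Hmgn3, Hmgn5 and Dek. B16F10 is a melanoma line of C57BL/6 origin. The 2 shControl libraries came from cells with an empty lentiviral vector, per the methods of the study, and the 2 shLmna libraries from cells with a short hairpin RNA against exon 8 of Lmna, which encodes A-type lamins. Both lines were selected with puromycin, so that transduction and selection were common to both groups. The sequencing methods of the study do not give the culture format of the cells. A single hairpin was profiled, the control carried no hairpin, and whether replicate libraries stem from independent transductions is not stated. The tests below therefore measure the spread between these libraries, which may be technical, and the effect of the hairpin cannot be told apart from any other difference between the 2 lines.

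HMG proteins are small, abundant nuclear proteins that bind DNA or nucleosomes without strong sequence preference and change how chromatin folds. HMGA proteins hold AT hooks that enter the minor groove of AT-rich DNA, HMGB proteins hold HMG boxes that bend DNA, and HMGN proteins bind the nucleosome core and loosen its packing by linker histone. DEK is a DNA-binding protein that introduces supercoils, acts as a histone chaperone and is known as an oncogene product in melanoma. Lamin A/C lines the inner nuclear membrane and tethers heterochromatin, and the study asked whether its loss altered the transcription of single genes.

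Transcripts were counted at their 3′ ends by bulk MARS-seq, with 2494880 to 3808843 counts per library. Levels are given as CPM, the count relative to the library total after trimmed-mean (TMM) scaling, with factors between 0.985 and 1.02. Lmna itself, the check of the labels, had counts of 2826 and 2684 in shControl against 331 and 480 in shLmna, and changed on the log2 scale by -2.61 (SE 0.142, edgeR adjusted p 7.93e-06). All 7 melanocyte markers examined had counts (Pmel and Mlana higher and Sox10 lower by the adjusted test), and their summed level was 20117 to 20891 CPM in shControl and 21156 to 24602 CPM in shLmna. Of these, Tyr had only 1 and 1 counts in shControl against 3 and 7 in shLmna and was not tested. Summed markers of fibroblasts (6 genes) were 7.12 to 7.50 CPM in shControl and 2.37 to 4.90 in shLmna. Those of immune cells (6 genes) were 14.5 to 16.4 and 10.7 to 12.0, those of endothelium (4 genes) 0.619 to 1.34 and 0 to 0.272, and those of epithelium (5 genes) 2.95 to 5.89 and 0.396 to 1.63. Dcn, Lum, Ptprc, Cd3e, Itgam, Adgre1, Cdh5, Kdr, Epcam and Krt5 were at 0 in every library. The part of the other detected markers in the results was not tested. In bulk libraries, fewer cells with a transcript and less of it per cell cannot be told apart.

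Hmgn1 and Hmgb1 were lower in shLmna, and the other 7 tested genes did not pass the adjusted test. Of the 10 genes, Hmga1 had no count and 9 passed the filter on low counts. An edgeR quasi-likelihood adjusted p under 0.05 was found for 2 of these 9, both lower, where 15.2% of all 9150 tested genes passed in either direction, 9.74% lower and 5.48% higher. The further limits were a log2 fold change over 1 in size and a mean normalized count over 5. By all 3 limits 1 of the 9 genes was called (Hmgb1), against 7.64% of all tested genes in either direction (5.88% lower, 1.76% higher). Hmgb1 passed the filter on low counts through the shControl libraries alone. Both tallies thus hold a gene that the filter admitted only because its groups differed. The libraries of the 2 groups did not overlap for 3 genes that lay lower in shLmna and 4 that lay higher, where 60.1% of all tested genes did not overlap, 30.6% lower and 29.5% higher. The median log2 fold change of the 9 genes was 0.18, also with Hmgb1 set to its bound, and that of all tested genes was -0.00107.

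**Figure D1:**
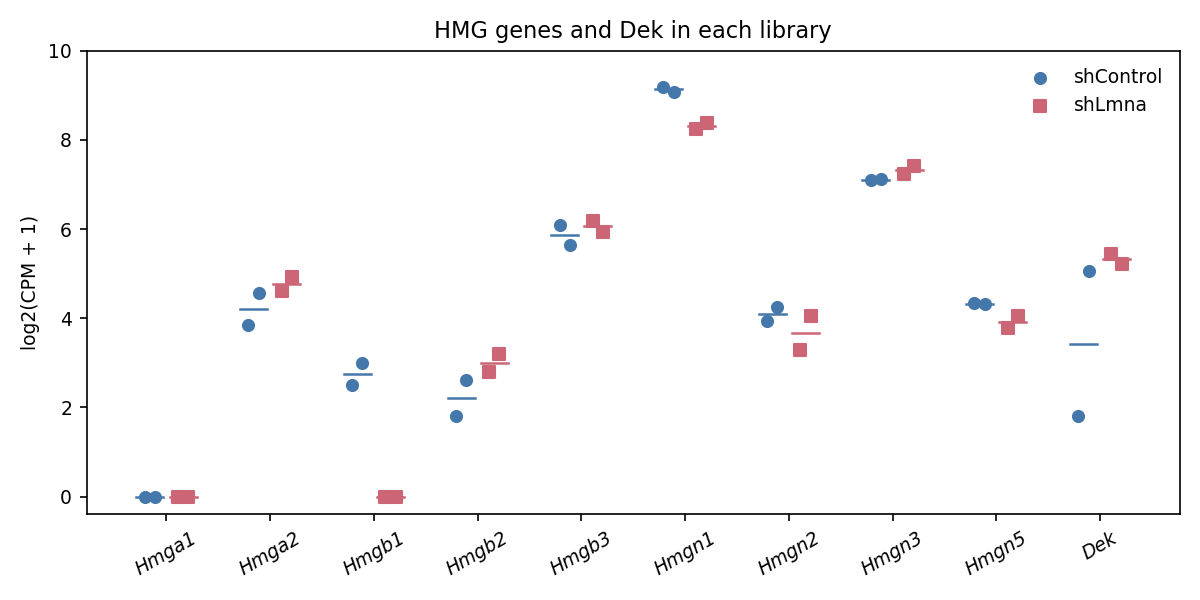
Level of each gene in each of the 4 libraries, as log2(CPM + 1), with a short line at the mean of the 2 libraries of a group. Hmgn1 lies lower in both shLmna libraries (305 and 332 CPM) than in both shControl libraries, Hmgb1 is at 0 in both shLmna libraries, and the shControl libraries of Dek lie far apart.

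The promoters of the 2 genes that fell are shown as their annotated regulatory sequences. Counts at the 3′ end do not show which start a transcript used. They are RefSeq windows on GRCm38.p6, from 250 bases before to 50 after the start, written on the strand of the gene. RefSeq windows were matched for 9 of the 10 genes, as 11 windows. Capitals mark a GC box (GGGCGG, or CCGCCC on the other strand) or a CCAAT box (CCAAT, or ATTGG on the other strand). Hmgn1 starts within chr16:96127676-96127975 (minus strand), and the 2 RefSeq starts of Hmgb1 lie within chr5:149053008-149053307 and chr5:149051567-149051866 (minus strand).
Hmgn1: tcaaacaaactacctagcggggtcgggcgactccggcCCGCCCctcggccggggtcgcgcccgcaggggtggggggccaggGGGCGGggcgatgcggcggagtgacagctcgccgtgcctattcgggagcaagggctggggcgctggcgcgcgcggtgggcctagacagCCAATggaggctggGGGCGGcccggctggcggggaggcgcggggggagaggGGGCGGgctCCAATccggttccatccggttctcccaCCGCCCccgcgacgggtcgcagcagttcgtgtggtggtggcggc
Hmgb1, first window: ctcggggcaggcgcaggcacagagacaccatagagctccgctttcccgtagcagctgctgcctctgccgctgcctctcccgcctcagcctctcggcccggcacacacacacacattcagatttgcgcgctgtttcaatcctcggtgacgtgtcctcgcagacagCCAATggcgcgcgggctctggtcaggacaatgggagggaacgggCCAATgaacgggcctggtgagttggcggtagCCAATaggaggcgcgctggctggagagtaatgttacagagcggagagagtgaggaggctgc
Hmgb1, second window: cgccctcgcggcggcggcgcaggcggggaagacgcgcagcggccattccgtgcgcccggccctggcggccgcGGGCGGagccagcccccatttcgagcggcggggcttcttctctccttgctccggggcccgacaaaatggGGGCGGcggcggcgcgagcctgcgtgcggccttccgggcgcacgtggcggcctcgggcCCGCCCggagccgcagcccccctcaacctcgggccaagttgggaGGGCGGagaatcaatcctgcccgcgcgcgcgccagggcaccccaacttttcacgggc

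The Hmgn1 window had a GC content of 76.0%, with 5 GC boxes and 2 CCAAT boxes. The first Hmgb1 window had 3 CCAAT boxes and 0 GC boxes at a GC content of 63.0%, and the second had 4 GC boxes and 0 CCAAT boxes at 77.0%. Over the 11 windows a CCAAT box was present in 7 and a GC box in 9, against 37.4% and 35.7% of all 32851 windows. The 2 Hmga1 windows (chr17:27556324-27556623 and chr17:27556354-27556653) overlap, with 4 GC boxes in each, so the 11 are not all separate sequences. A TATA box (TATAAA, or TTTATA on the other strand) was in 0 of the 11 and in 13.6% of all windows. Overlaps between different motifs in the 11 windows numbered 0, and 1 pair of GC boxes overlapped, in the Dek window. GC content ranged from 56.7% to 77.0% over the 11, with a median of 52.7% over all windows. These are matches of letters, not binding sites.

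Hmgn1 encodes a nucleosome-binding HMGN protein and lies at bases 96120618 to 96127729 of chromosome 16 (GRCm38, minus strand). It had counts of 1891 and 2019 in shControl against 770 and 1219 in shLmna, or 586 and 541 CPM against 305 and 332 CPM. Both shLmna libraries lay below both shControl libraries, and the groups stood well apart compared with the gap inside each. The mean went from 563 ± 31.9 to 318 ± 19.5 CPM (SD, n = 2). Hmgn1 fell by 43.4%, which is -0.82 on the log2 scale (SE 0.123, 95% interval -1.10 to -0.55), with an edgeR adjusted p of 0.00183. The estimate was under the limit of 1 on the log2 scale, while the interval spans a 1.46-fold to a 2.14-fold lower level and so reaches past that limit. Under all 15 alternatives Hmgn1 stayed lower and past the adjusted test, with changes between -0.89 and -0.52 on the log2 scale and an adjusted p of 0.0297 or less (lowest 2.77e-08). The smallest change, -0.52, came from the authors' batch-corrected log2 values, at 10.89 and 10.83 in shControl against 10.31 and 10.37 in shLmna. Hmgn1 held 69.3% and 65.0% of all counts of the 10 genes in shControl and 49.2% and 49.8% in shLmna.

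Base composition and repeated sequence of the counted end were read beside these values. GC content of the last 1000 transcript bases of Hmgn1, up to the RefSeq end, was 43.5%. Among 1495 tested genes whose ends had a GC content above 42% and up to 46%, 5.42% were lower by the adjusted test. Of the 970 stretches of 31 bases in that end, 16.6% also occur in other annotated genes, all 12 of them pseudogenes. The GRCm38 annotation also holds a longer Hmgn1 transcript that runs 970 bases past the RefSeq end. The 3 tested genes outside the list whose centred log2 CPM over the 4 libraries lay nearest to Hmgn1 were Pou4f1 (distance 0.0615), Rcn2 (0.0661) and Cpne1 (0.0772). Pou4f1 rested on 12 and 13 counts in shControl against 4 and 7 in shLmna, and did not pass (edgeR adjusted p 0.224). Nearness over 4 libraries does not show shared regulation.

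Hmgb1 encodes the best known HMG box protein, a DNA-bending factor in the nucleus that acts as an alarm signal when it leaves the cell. The gene is annotated at bases 149046702 to 149184489 of chromosome 5 (minus strand). It was counted 15 and 26 times in shControl, at 4.65 and 6.96 CPM, but 0 times in either shLmna library. The groups did not overlap, at few counts in all. A count of 0 allows up to 3 counts per library, or 1.19 and 0.817 CPM in the 2 shLmna libraries, so that Hmgb1 was at least 5.79-fold lower. Such limits cover counting error in shLmna only, not that of the 15 and 26 shControl counts. The edgeR adjusted p was 0.00292, and it ranged from 9.17e-09 to 0.0115 over the 15 alternatives, each with a lower level. The batch-corrected log2 values differed by -0.39, which is inside the limit of 1 and ends the call by all 3 limits. They were 7.49 and 7.52 in shControl against 7.12 and 7.10 in shLmna, where the counts were 0. This scale thus holds low counts close together. A gene with so few counts could hardly reach 1 there, so losing the call does not show a smaller change. Hmgb1 passed the filter on low counts through the shControl libraries alone, so a gene with this pattern had to differ to be tested. Without shControl 2 its mean normalized count fell under 5 and it was not called by all 3 limits, although its adjusted p was 0.00108.

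Several transcript ends are annotated for Hmgb1. The basic set of coding transcripts has 4 ends, of which 3 lie 1526, 1943 and 2699 bases short of the most distal one. GC content of the last 1000 bases was 36.1% at the distal end and 39.4%, 48.8% and 45.2% (over 923 bases) at the others. The authors counted the last 1000 bases of RefSeq genes and 100 bases downstream, and the RefSeq end they used for Hmgb1 is not given in the sources used here. No stretch of 31 bases of the distal end occurs in another annotated gene. Hmgb1-rs17, a related sequence listed on its own, had 1 count in each shControl library and 0 in shLmna. Among 806 tested genes whose ends had a GC content above 34% and up to 38%, the range that holds Hmgb1, 25.8% were lower by the adjusted test and 8.68% higher.

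The other HMGB genes did not pass the test. Hmgb2, the paralog that marks dividing cells, lies at 57511907 to 57515999 of chromosome 8. It had 2.48 and 5.09 CPM in shControl and 5.93 and 8.17 CPM in shLmna. The shLmna libraries lay above the shControl libraries, but on 8, 19, 15 and 30 counts the difference did not pass the test. The log2 fold change was 0.89 (SE 0.436, 95% interval -0.08 to 1.87, edgeR adjusted p 0.205). After a correction for GC content it was 1.40 with an edgeR adjusted p of 0.0344, and over the 15 alternatives the adjusted p ranged from 0.0170 to 0.733. Without shControl 2 the log2 fold change was 1.52 and without shControl 1 it was 0.50. GC content of the Hmgb2 end was 36.8%.

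Hmgb3, an X-linked paralog (chromosome X, 71555918 to 71560676), had 67.5 and 49.0 CPM in shControl and 71.6 and 60.5 CPM in shLmna. The libraries of the 2 groups overlapped. The log2 fold change was 0.18 (SE 0.183, 95% interval -0.23 to 0.59, edgeR adjusted p 0.558), and it was -0.041 without shControl 2. Of the 31-base stretches of its end, 29.0% occur in other genes, 11 pseudogenes among 15, and the counting may have split reads between them.

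The HMGA genes stood at low or no counts. Hmga2, an oncofetal gene held down by let-7 microRNAs in adult tissue, lies at 120361275 to 120476469 of chromosome 10. It had 13.3 and 22.8 CPM in shControl and 23.3 and 29.2 CPM in shLmna. The highest shControl library lay just under the lowest shLmna library. The log2 fold change was 0.54 (SE 0.278, 95% interval -0.08 to 1.16, edgeR adjusted p 0.229). It ranged from 0.22 without shControl 1 to 0.99 without shControl 2, where the edgeR adjusted p was 0.0232, and over the 15 alternatives the adjusted p ranged from 0.0164 to 0.653. GC content of its end was 39.2%. Hmga2-ps1, listed as a row of its own, had 1 and 2 counts in the shControl libraries against 0 in shLmna.

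Hmga1, the paralog at 27556497 to 27563674 of chromosome 17, was listed at 0 in all 4 libraries, which allows between 0.803 and 1.19 CPM per library. No comparison was possible for it. AI413582, on the other strand over the Hmga1 end, was counted in every library (437 to 628 counts). Neither the strand setting of the counting nor its handling of reads that match several places is stated, so the limit for Hmga1 covers counting error only and its level cannot be read from these counts.

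Among the HMGN paralogs, the fall of Hmgn1 was not accompanied by a change past the test. Hmgn2, the closest relative of Hmgn1 (chromosome 4, 133964738 to 133968650), had 14.2 and 17.9 CPM in shControl and 8.70 and 15.5 CPM in shLmna. The groups overlapped, since shLmna 2 lay between the shControl libraries. The log2 fold change was -0.38 (SE 0.305, 95% interval -1.06 to 0.30, edgeR adjusted p 0.447). It was -0.06 without shLmna 1 and -0.89 without shLmna 2. In its counted end 81.2% of the 31-base stretches occur in 29 other genes, 25 of them pseudogenes, and 786 of the 788 shared stretches occur in Gm10282, annotated as protein-coding, so its count is uncertain.

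Hmgn3, an HMGN gene of neural and endocrine tissue (chromosome 9, 83109948 to 83146685), had 136 and 138 CPM in shControl and 149.5 and 169 CPM in shLmna. The shLmna libraries lay above the shControl libraries by a small margin. The log2 fold change was 0.22 (SE 0.124, 95% interval -0.06 to 0.50, edgeR adjusted p 0.272), and a change beyond 0.50 lies outside that interval. With the batch-corrected log2 values the limma adjusted p was 0.0465, the lowest of the 15 alternatives, whose highest was 0.728 over the 15 alternatives. Gm2065 and Gm29054 are annotated on the other strand over its counted end, and whether the counting used strand is not stated.

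Hmgn5, a nucleosome-binding protein with a long acidic tail encoded on chromosome X (109004534 to 109013404), had 19.2 and 19.0 CPM in shControl and 12.7 and 15.5 CPM in shLmna. Both shLmna libraries lay below the shControl libraries, which were nearly equal. The log2 fold change was -0.43 (SE 0.236, 95% interval -0.95 to 0.10, edgeR adjusted p 0.263). The direction turned to 0.10 after the GC correction, and GC content of its end was 36.6%. With the batch-corrected log2 values the limma adjusted p was 0.0450, the lowest of the 15 alternatives, whose highest was 0.830.

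**Figure D2:**
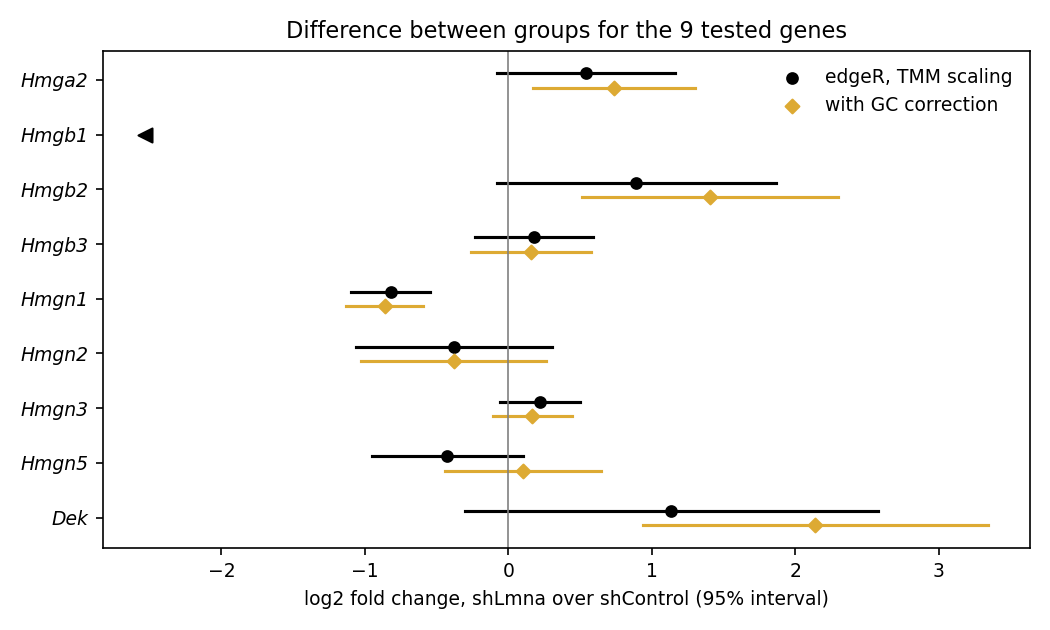
Log2 fold change of shLmna over shControl for the 9 tested genes, with 95% intervals, from the edgeR fit (circles) and from the same fit with a correction for GC content (diamonds). The arrowhead of Hmgb1 marks its bound of -2.53 on the log2 scale, since both shLmna libraries were at 0. The bound takes the shControl mean as exact. The intervals of Hmgn1 lie below 0 in both fits, and those of Hmga2, Hmgb2 and Dek lie above 0 after the correction (for Hmga2, with an edgeR adjusted p of 0.0700).

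Dek (chromosome 13, 47084775 to 47106201, minus strand) differed most between libraries of one group. In shControl 1 and 2 Dek was counted 8 and 121 times, and in shLmna 1 and 2 it was counted 108 and 133 times, or 2.48 and 32.4 CPM against 42.7 and 36.2 CPM. One shControl library was near the shLmna level and the other far below it. The mean went from 17.4 ± 21.2 to 39.5 ± 4.58 CPM (SD, n = 2). On the log2 scale it changed by 1.13 (SE 0.644, 95% interval -0.31 to 2.57, edgeR adjusted p 0.275). Without shControl 1 the log2 fold change was 0.28 (edgeR adjusted p 0.443). Without shControl 2 it was 3.96 (edgeR adjusted p 7.81e-09), a value that rests on the 8 counts of shControl 1. After the GC correction it was 2.14 (edgeR adjusted p 0.0196), and with no filter on low counts 1.14 (edgeR adjusted p 2.65e-05). On the same counts, leaving out the filter took the unadjusted edgeR p of Dek from 0.109 to 1.32e-06. That of Lmna went from 6.84e-09 to 1.80e-70. The smaller values thus do not measure a smaller gap between the shControl libraries of Dek. Over the 15 alternatives the adjusted p ranged from 1.67e-11 to 0.846, and 5 of the 15 passed.

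The gap of Dek between the shControl libraries was 3.42 on the log2 CPM scale, wider than that of 99.8% of the tested genes, whose median gap was 0.205. At least as wide a gap was found for 18 other tested genes, and 17 of these 18 were lower in shControl 1. Median GC content of the counted ends was 37.0% in the 17 of them with a value and 47.2% in all tested genes, and that of Dek was 33.9%. Among 329 tested genes whose ends had a GC content up to 34%, 50.2% were lower in shLmna by the adjusted test and 5.17% higher. Between the shLmna libraries the gap of Dek was 0.234, against a median of 0.184. Kdm1b, annotated on the other strand over the counted end of Dek, had counts of 3 and 16 in shControl against 0 and 1 in shLmna, and no 31-base stretch of that end occurs in another annotated gene.

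**Figure D3:**
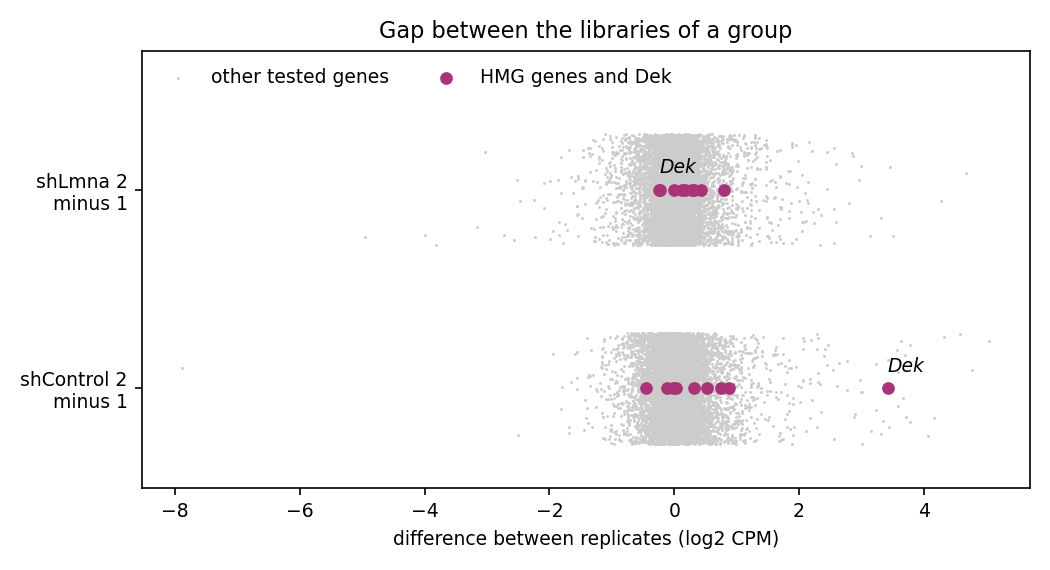
Difference between replicate 2 and replicate 1 in log2 CPM, for shControl (bottom) and shLmna (top), with each tested gene as a grey point scattered vertically at random and the 9 HMG and Dek genes in purple. Dek lies at 3.42 in shControl and at -0.23 in shLmna, while the other 8 genes lie between -0.46 and 0.88 in shControl.

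**Figure D4:**
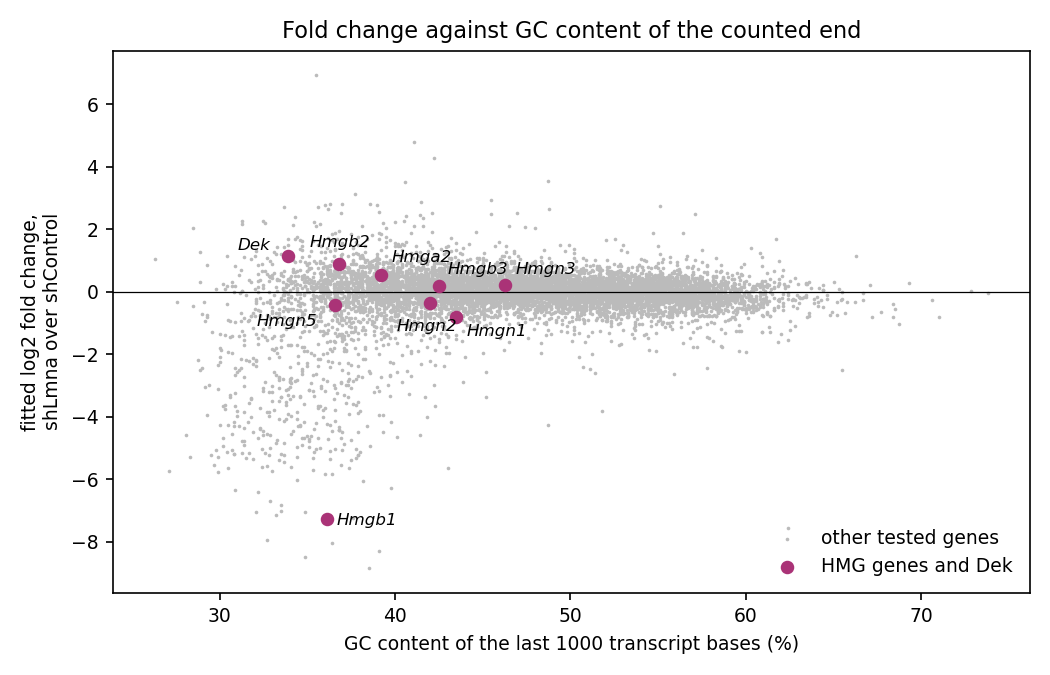
Fitted log2 fold change of shLmna over shControl against GC content of the last 1000 transcript bases, for the 8803 tested genes with a value (grey) and the HMG and Dek genes (purple). Low values gather at low GC content, where Hmgb1 (36.1%) lies with them while Dek (33.9%) and Hmgb2 (36.8%) lie above 0. Hmgb1 is drawn at its fitted value, which depends on the prior count.

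Lists of genes that work beside HMG proteins and Dek were counted next. Of 32 further genes with an HMG box, 20 were tested, and 1 was lower and 1 higher by the edgeR adjusted test, with a median log2 fold change of 0.19. Over all 9150 tested genes, 9.74% were lower and 5.48% higher by that test. Sox10, the HMG box factor of the melanocyte lineage, had counts of 5083 and 6914 in shControl against 2131 and 3676 in shLmna. Its level went from 1713 to 922 CPM, and changed on the log2 scale by -0.89 (SE 0.130, edgeR adjusted p 0.00161). Sox4, an HMG box factor of progenitor cells, had counts of 186 and 248 in shControl against 245 and 345 in shLmna, and changed on the log2 scale by 0.62 (edgeR adjusted p 0.0163). Its adjusted p was 0.0677 with DESeq2, 0.0950 without shLmna 1 and 0.0702 without shLmna 2, in a range of 2.42e-14 to 0.0950, and after the GC correction its log2 fold change was 1.48. Gm26735 is annotated on the other strand over the counted end of Sox4. Ssrp1, the HMG box subunit of the FACT histone chaperone, changed by 0.13 on the log2 scale, with an edgeR adjusted p of 0.577.

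The SET complex holds HMGB2 together with acidic chaperones and nucleases. Of 11 genes of this complex and related chaperones, all tested, 1 was lower and 0 higher, with a median log2 fold change of -0.17. The shares over all tested genes were 9.74% and 5.48%. Anp32e, the chaperone that removes histone H2A.Z, had counts of 238 and 288 in shControl against 28 and 63 in shLmna. It went from 75.4 to 14.1 CPM, and changed on the log2 scale by -2.38 (SE 0.211, edgeR adjusted p 7.45e-05). Anp32e passed under all 15 alternatives, at changes between -2.76 and -0.74 on the log2 scale. The value of -0.74 came from the batch-corrected values, whose scale is not that of the counts. GC content of the Anp32e end was 37.9%.

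Of 8 partners and modifiers of Dek, 6 were tested, and Daxx alone passed the edgeR adjusted test, lower, where 9.74% of all tested genes were lower. Daxx, a histone H3.3 chaperone, had counts of 135 and 171 in shControl against 65 and 107 in shLmna, and changed on the log2 scale by -0.67 (edgeR adjusted p 0.0364). Daxx missed the threshold with DESeq2 (adjusted p 0.245) and without shControl 2 (0.0827), shLmna 1 (0.211) or shLmna 2 (0.110), and its lowest adjusted p was 0.00572. Of the 6 tested, 4 had an unadjusted edgeR p under 0.05, Daxx among them. The log2 fold changes of the others were 0.42 for Csnk2a1, 0.58 for Cbx5, -0.45 for Psip1, -0.08 for Csnk2b and 0.05 for Parp1. Of 10 receptors and ligands of HMGB1, 2 were tested and 0 passed the edgeR adjusted test, with 1 at an unadjusted p under 0.05 and 0 with DESeq2, and Tlr4 passed with the batch-corrected values. Tlr9, Cxcr4, Thbd and Cd24a were at 0 in all libraries. Of 11 genes of the let-7 and Hmga2 axis, 10 were tested and 0 passed the edgeR adjusted test, with 4 at an unadjusted p under 0.05 and 0 with DESeq2. Of these 10, Dis3l2 passed with no filter, with the replicate block and after the GC correction with or without it, Drosha and Igf2bp3 passed without shControl 1, and 6 passed with the batch-corrected values (those 3, Lin28b, Zcchc11 and Zcchc6). Over all tested genes, 30.1% had an unadjusted p under 0.05.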

How the data were processed

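RNA of 4 libraries of B16F10 cells (2 shControl, 2 shLmna, grouped by sample title) was profiled by bulk MARS-seq, which primes at the poly(A) tail. The authors trimmed reads with Cutadapt, aligned them to mm10 with STAR 2.4.2a and counted them with HTSeq over the last 1000 bases of RefSeq genes and 100 bases downstream, with UMI duplicates marked. The deposited matrix of raw counts per gene was the input of the main test. Whether it precedes the collapse of duplicates is not stated. A second deposited table holds a normalized signal, the count divided by 1 DESeq2 size factor per library, together with the authors' p-values, which were not used. In each library 100% of these signal values were whole multiples of 1 step (tolerance 0.01), and counts recovered from them served as an alternative. Over the genes present in both, the matrix held 1.08 to 1.09 times the recovered counts per library. The reason for this was not tested. The remaining deposited table holds log2 values after ComBat batch correction by the authors, who do not name the batches.

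Here the quasi-likelihood test of edgeR 4.0.16 (R 4.3.3) was run two-sided on the counts, with TMM scaling, the filterByExpr filter and group as the one term, adjusted by Benjamini-Hochberg over 9150 genes. Limits were an adjusted p of 0.05, a log2 fold change of 1 and a mean normalized count of 5, as in the study. SEs derive from the F statistic. Alternatives used limma 3.58.1 and DESeq2 1.42.0. GC content and shared 31-base stretches were read from GENCODE M21 transcripts (GRCm38), trimmed to the RefSeq end where that lay in the last exon, and 8803 tested genes had a value. The GC correction fitted a loess (span 0.5) per library. Scripts were tested on simulated data. Libraries of a group differed by more than sampling noise (chi-square per degree of freedom 6.96 in shControl and 3.91 in shLmna) and were kept as separate samples.

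The genes and lists described were chosen with earlier results of these data known. Named genes are the 10 members, Lmna, up to 4 genes a direction from each partner list with an adjusted p under 0.05, and the 3 nearest neighbours of the gene with the smallest p. Genes named outside this rule (Ssrp1, Csnk2a1, Csnk2b, Parp1, Cbx5, Psip1, Tlr4, the let-7 axis genes, the melanocyte markers Pmel, Mlana and Tyr, the genes at 0, overlapping or repeated genes and, among the observations, Atrx) were picked after their values were seen. A few items are not reported here.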

Additional observations from a re-analysis of the deposited data

How the results depend on the processing

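Low counts limit Hmgb1 and Hmgb2, with 0 to 30 counts per library, and Hmga1, with 0 counts, could not be tested. Whether the Hmgb1 counts cover transcripts of all its annotated ends is not known. The number of the 9 tested genes past the adjusted test, 2 in the main fit, was 4 after the GC correction, 5 after the GC correction with the replicate block, 6 with limma on the batch-corrected values and 2 to 4 when 1 library was left out. By all 3 limits, 1 gene became 2 with no filter, 2 with the replicate block, 3 after the GC correction and 3 with the block added to it. With the batch-corrected values the number became 0. That scale holds low counts close together, and genes with many counts changed less on it too. Lmna changed there by -1.54 on the log2 scale against -2.61 in the main fit, and Hmgn1 by -0.52 against -0.82. It stayed 1 without shControl 2, but that gene was then Dek in place of Hmgb1. Over all tested genes, 1392 passed in the main fit, 806 with DESeq2, 2259 after the GC correction with the replicate block, 3781 with the batch-corrected values and 691 (without shLmna 1) to 1878 (without shControl 1) when 1 library was left out. These all-gene counts are out of 9150 genes, except for 13616 genes fitted with DESeq2 and 10417 with the batch-corrected values. DESeq2 gave some of its genes no adjusted p, and these were counted as not passing. After the GC correction alone, 1631 of 9150 genes passed. The counts among the 9 genes under each setting are to be read beside these all-gene counts. Of the 1392 in the main fit, 64.0% were lower. That share was 46.2% after the GC correction, 44.8% with the block added and 52.6% with the batch-corrected values. In the partner lists 4 genes became 9 with no filter, 2 with DESeq2, 10 with the replicate block, 10 after the GC correction, 13 with the block added, 22 with the batch-corrected values and 2 to 9 when 1 library was left out. The causes were not tested. Directions turned for Hmgb3 (-0.041 without shControl 2, up to 0.42 without shControl 1), for Hmgn5 (0.10 after the GC correction and 0.11 with the block added) and for Rcn2 (0.26 and 0.30 under the same 2 fits). Of 135 values for the 9 genes under alternatives, 119 kept direction and side of the threshold, 13 newly passed it and 3 turned.

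Replicate numbers are shared by the groups, but the same-numbered libraries did not deviate together (correlation 0.0129 across 9150 genes, which are not independent replicates). With the replicate block all tested genes past the adjusted test numbered 2072, and Dek newly passed (log2 fold change 1.40, edgeR adjusted p 2.00e-05). The unadjusted edgeR p of Lmna was 4.05e-43 with the block and 6.84e-09 in the main fit. The pass of Dek thus does not mean a smaller gap between its shControl libraries. Lmna stayed lower and past the test under the 15 alternatives, between -2.74 and -1.54 on the log2 scale. The value of -1.54 came from the batch-corrected values, whose scale is not that of the counts.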

Other observations

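Another gene with low GC content at its end (32.8%) showed a gap between the shControl libraries like that of Dek. Atrx, the chromatin remodeler that works with Daxx, was chosen after its values were seen. Its shControl counts were 4 and 117, its shLmna counts 0 and 1, and it was under the filter. The shControl libraries of Atrx thus lay in the same order as those of Dek (8 and 121 counts), while its shLmna libraries, unlike those of Dek, held 1 count at most. Its part in the Dek value was not tested.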
